A study of Homo sapiens with 27 samples.

Results

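RNA-Seq was used to compare overconfluent with subconfluent U2OS cells, a human osteosarcoma line that grows attached to the dish. The cells were the pLKO.1 control, a stable line selected with puromycin after lentiviral transduction with the empty pLKO.1 vector. They were plated at 30% confluence, a plating that the methods of the study date to day −2. Collection was 2 days before confluence (proliferating cells, day −2), at confluence (day 0) or 2 days after confluence (overconfluent cells, day +2). Density and time since plating thus differ together between the days and cannot be told apart, and a change of medium is not stated. The comparison described here is that of the 3 control libraries of day +2 with the 3 control libraries of day −2, which spans the whole expansion. These are 6 of the 27 libraries of the series. The 3 control libraries of day 0 and the libraries of MMP2sh1 and MMP2sh2, lines that carry an shRNA against MMP2 in the same vector and were collected at the same 3 days, were used for further readings. The control is 1 stable line, and the libraries of a day were stated to be independent biological replicates of it. The genes described are those that passed a filter on low counts in the 6 libraries, 19099 of the 55882 symbols in the files. No read was counted for 20888 symbols, and 15895 with reads were removed by the filter.

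Cells of an attached culture that fills its dish are known to slow their division, to spread less and to lower the programmes that serve growth, such as the making of ribosomes and membrane lipids. Nuclear YAP, a coactivator that responds to cell shape and contacts, is known to decline in crowded cells. Tumour lines such as U2OS often keep dividing past confluence. Matrix proteins are known to accumulate in dense cultures of mesenchymal cells, and medium that is not renewed loses nutrients and growth factors.

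The total count on genes was 35135375 to 59374327 in the libraries of day −2 and 33778818 to 39739320 in those of day +2. Levels are given as CPM, read counts brought to one common library total, with TMM scaling, which adjusts each library so that most genes do not shift, and they are not corrected for gene length. The 6 pairs of replicates had a Pearson correlation of log2 CPM of 0.982 to 0.986 across genes, and no pair was as alike as counting error alone would make it (chi-square divided by its degrees of freedom, 5.65 to 10.7). The mesenchymal genes VIM, COL1A1, SPARC, RUNX2, CDH2 and FN1 were at 35.4 CPM or more in all 6 libraries, and S100A4 was at 9.23 to 11.7 CPM. The osteoblast genes SP7 and BGLAP, as well as COL1A2, were at 0.420 CPM or less and IBSP had no read. ALPL, also an osteoblast gene, was at 1.65 to 4.17 CPM, and 18 of 28 genes of an osteoblast list passed the filter. Of 9 markers of blood cells, 9 were under 1 CPM in all 6 libraries, and CD3E, CD68 and HBB had no read. Of 9 epithelial markers, KRT17 was at 79.7 to 104 CPM and CLDN4 at 23.5 to 34.4 CPM, while GRHL2 had no read. KRT14 was at 1.75 to 1.84 CPM at day −2 and at 10.8 to 13.0 CPM at day +2. EPCAM was at 3.14 to 4.89 CPM, and CDH1, KRT5, KRT19 and ESRP1 reached at most 2.50 CPM. Of 7 endothelial markers, 4 were under 1 CPM in all 6 libraries. The others were VWF (1.98 to 4.57 CPM), CLDN5 (2.28 to 4.06 CPM) and TEK (0.604 to 2.03 CPM). In bulk RNA, fewer cells of one kind and less RNA per cell cannot be told apart, and every level is a share of the library.

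More genes changed than did not between day −2 and day +2. With edgeR's quasi-likelihood test and a Benjamini-Hochberg adjusted p under 0.05, 10839 of the 19099 genes were called, 5373 of them higher at day +2 (28.1% of the genes tested) and 5466 lower (28.6%). The median change among the called genes was a log2 fold change of 0.72 for those that rose and −0.49 for those that fell. Larger changes were more often rises: 1915 genes rose over 2-fold (10.0% of the genes tested) and 1065 fell over 2-fold (5.58%). Over 4-fold, 603 rose and 311 fell, and over 8-fold, 233 rose and 122 fell. The split of small changes depends on the scaling. When libraries were scaled to their total count alone, 40.1% of the called genes were lower in place of 50.4%, and the median log2 fold change of all genes moved from 0.03 to 0.13.

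**Figure D1:**
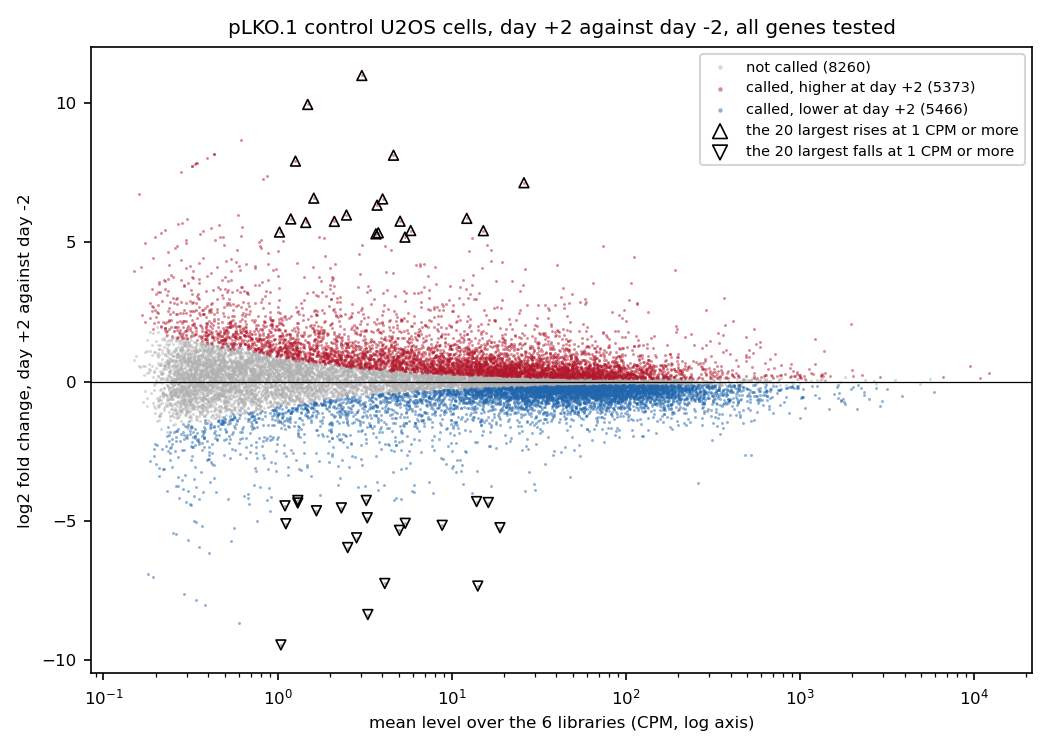
Each point is 1 of the 19099 genes tested, placed by its mean level over the 6 libraries (CPM, log axis) and its log2 fold change from day −2 to day +2, with 5373 genes called higher in red, 5466 called lower in blue and the others in grey. The open triangles mark the 20 largest rises and the 20 largest falls at 1 CPM or more, and large changes are seen mostly at low and moderate levels.

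The direction of change differed with the level of the gene. Of 2224 genes with a mean of 100 CPM or more, 1266 fell (56.9%) and 474 rose (21.3%). Over 2-fold, 91 of them fell (4.09%) and 53 rose (2.38%). Of 8008 genes between 10 and 100 CPM, 3068 fell (38.3%) and 2515 rose (31.4%). Over 2-fold the order there was reversed, with 280 lower (3.5%) and 393 higher (4.91%). These counts use TMM scaling, and the split of small changes depends on the scaling. In the range of 1 to 10 CPM, 1729 of 4888 genes rose (35.4%) and 824 fell (16.9%), and 820 of the rises (16.8% of the genes in that range) were over 2-fold. Of the 14292 tested genes that the annotation lists as protein coding, 34.3% fell and 30.0% rose, whereas of 646 long non-coding RNAs 12.8% fell and 33.1% rose. Over 2-fold, 5.18% of the coding genes fell and 8.98% rose, against 6.04% and 16.1% of the long non-coding RNAs. Such RNAs are mostly at low levels, and their level was not matched to that of coding genes. A further 3196 tested symbols were not found in the annotation, and of these 21.2% rose and 10.4% fell. Any non-coding RNAs among them are not in the count of 646.

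The 20 genes with the largest rise among called genes with a mean of 1 CPM or more were at low levels at day −2. Their means were 0 to 0.717 CPM at day −2 and 2.01 to 51.7 CPM at day +2, and their summed level went from 3.06 to 207 CPM. The groups did not overlap in any of the 20, which the choice by fold change makes likely. The log2 fold changes ran from 11 to 5.19, with a median of 5.86, and the next gene in order, THSD7A, was at 5.19 as well.

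SLC14A1 (GRCh37, chr18:43266990-43332485, plus strand), a urea transporter, had the highest level at day +2 among the 20, with 0.104, 0.709 and 0.345 CPM in the 3 libraries of day −2 and 47.0, 53.5 and 54.5 CPM in those of day +2. Its log2 fold change was 7.15 (standard error 0.19, adjusted p = 4.8e-21 from edgeR). SLITRK6, a membrane protein known from neurite growth, went from 0.537, 0.520 and 1.09 CPM to 31.3, 26.4 and 31.4 CPM. SOSTDC1, a secreted antagonist of BMP and WNT signals, went from 0.242, 0.473 and 0.575 CPM to 22.5, 25.6 and 23.9 CPM. All libraries of day +2 were thus far above those of day −2 in these 3 genes, and the day 0 means of 2.81, 4.39 and 4.79 CPM lay between.

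A gene of fasting metabolism led the rises. PCK1 (GRCh37, chr20:56136136-56143177, plus strand), the enzyme that commits oxaloacetate to gluconeogenesis, had no read in the libraries of day −2 and 727 reads in those of day +2, at 3.28, 7.01 and 7.998 CPM. It was at least 281-fold higher at day +2, a bound set by 3 counts over the 3 libraries of day −2 (0.0223 CPM). Its mean at day 0 was 0.704 CPM, between the other days.

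3 of the 20 are known mainly from cytotoxic lymphocytes. GZMA, a granule protease, had no read at day −2 and 349 reads at day +2, at 2.62, 2.91 and 3.40 CPM, at least 135-fold higher. PRF1, the pore-forming protein of the same granules, went from 0.0346, 0 and 0.0863 CPM to 2.59, 2.27 and 2.16 CPM. KLRC2, a receptor of natural killer cells, went from 0.0346, 0.0473 and 0 CPM to 8.76, 9.46 and 9.51 CPM, and its close paralogs make the assignment of its reads uncertain. All 3 were low in every library of day −2 and above 2 CPM in every library of day +2, while the 9 markers of blood cells reached at most 0.544 CPM in any of the 6 libraries and PTPRC, which all white blood cells carry, went from 0.208 to 0.316 CPM at day −2 to 0.0486 to 0.231 CPM at day +2.

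MGP, an inhibitor of matrix calcification, went from 0.191, 0.0236 and 0 CPM to 7.17, 7.04 and 7.95 CPM. APOD, a lipid-binding apolipoprotein known to rise in arrested fibroblasts, went from 0.260, 0.331 and 0.173 CPM to 11.2, 10.9 and 12.03 CPM. PTGDS, a prostaglandin D synthase, had 1 read in the libraries of day −2 and 294 at day +2, a ratio of 341 (95% counting interval 61.1 to 13500). CST5, a cystatin that inhibits cysteine proteases, and DMBT1, a scavenger receptor of mucosal surfaces, rose by 5.77 and 5.19 on the log2 scale. ITGA8, an integrin subunit that binds matrix proteins, was at 0, 0.0946 and 0 CPM at day −2 and at 3.08, 2.82 and 3.70 CPM at day +2. Its fitted log2 fold change of 6.59 was 10.1 without replicate 2 of day −2, the one library of that day with reads of it. The other rises were GABRR1 (6.56), the non-coding host gene MIR205HG (5.99), AC064875.2 (5.76), WSCD2 (5.72), HTN1 (5.38) and the apelin receptor APLNR (5.31), each as a log2 fold change.

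**Figure D2:**
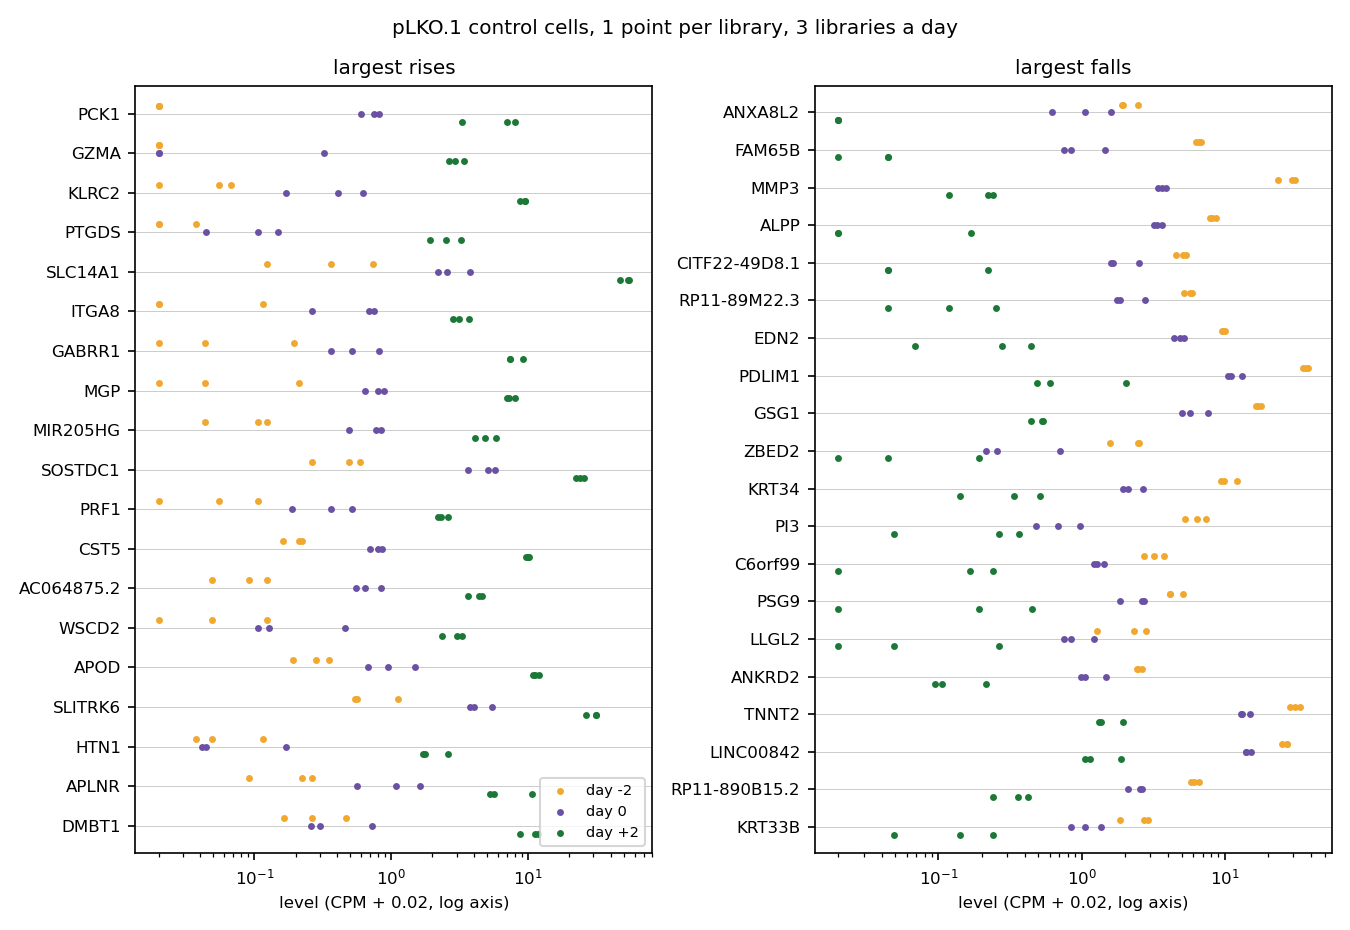
Levels of the 20 largest rises (left) and the 20 largest falls (right) in each control library, 1 point per library and 3 libraries a day, on a log axis of CPM with 0.02 added so that libraries without a read can be drawn. One of the rises is not drawn. The points of day −2 and day +2 do not overlap in any gene drawn, and the means of day 0 lie between them.

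The 20 largest falls had means of 2.09 to 36.9 CPM at day −2 and 0 to 1.53 CPM at day +2, and their summed level went from 217 to 6.62 CPM. Their log2 fold changes ran from −9.46 to −4.27, with a median of −5.10, and the next gene in order, CTD-2319I12.1, was at −4.25. MMP3 (GRCh37, chr11:102706532-102714340, minus strand), stromelysin-1, a protease of proteoglycans and other matrix proteins, was at 29.6, 31.0 and 23.7 CPM at day −2 and at 0.202, 0.0988 and 0.219 CPM at day +2. Its log2 fold change was −7.34 (standard error 0.19, adjusted p = 3.9e-21 from edgeR), and it had fallen to 3.63 CPM by day 0. FAM65B, listed as RIPOR2 in the current annotation and known as an inhibitor of RhoA, went from 6.86, 6.60 and 6.30 CPM to 0, 0.0247 and 0.0243 CPM, from 894 reads to 2, a ratio of 386 (95% counting interval 107 to 3190).

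PDLIM1, an adaptor of actin stress fibres, went from 37.0, 38.5 and 35.2 CPM to 2.02, 0.469 and 0.583 CPM, a log2 fold change of −5.25 (standard error 0.21). TNNT2, the cardiac form of troponin T, went from 28.7, 30.7 and 33.4 CPM to 1.35, 1.31 and 1.92 CPM, a log2 fold change of −4.34 (standard error 0.13). ANKRD2, a stretch-responsive protein of muscle, and the hair keratins KRT34 and KRT33B fell by 4.36, 5.09 and 4.27 on the log2 scale. The keratins lie in a cluster of near-identical genes, so that the assignment of their reads is uncertain. LLGL2, a protein of cell polarity, was at 2.30, 1.25 and 2.79 CPM at day −2 and at 0.0288, 0.247 and 0 CPM at day +2. Its fitted log2 fold change of −4.46 was −7.04 without replicate 2 of day +2.

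EDN2, a vasoconstrictor peptide of the endothelin family, went from 10.1, 9.79 and 9.52 CPM to 0.259, 0.420 and 0.0486 CPM. PI3, an inhibitor of neutrophil elastase, went from 6.39, 7.38 and 5.26 CPM to 0.0288, 0.346 and 0.243 CPM. ALPP, the placental alkaline phosphatase, went from 8.17, 8.63 and 7.82 CPM to 0, 0.148 and 0 CPM. Its fitted log2 fold change was −7.25, and −11.4 without replicate 2 of day +2, the one library of that day with reads of it. ANXA8L2 had 276 reads at day −2 and none at day +2, at least 79.4-fold lower. ALPP, ANXA8L2 and PSG9, a pregnancy glycoprotein (log2 fold change −4.54), have near-identical copies in the genome, and their values are uncertain for that reason. The others were the non-coding or unmatched symbols CITF22-49D8.1 (−5.96), RP11-89M22.3 (−5.61), C6orf99 (−4.64), LINC00842 (−4.31) and RP11-890B15.2 (−4.27), the germ cell gene GSG1 (−5.16) and the zinc finger gene ZBED2 (−5.10).

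Ranked by the gain in CPM instead of the fold change, the 10 leading genes included IGFBP5, FN1, PXDN, TIMP1 and CTSB. IGFBP5 (GRCh37, chr2:217536828-217560272, minus strand), a binding protein of insulin-like growth factors, was at 78.5, 85.3 and 78.1 CPM at day −2 and at 682, 632 and 654 CPM at day +2. Its log2 fold change was 3.01 (standard error 0.05, adjusted p = 5.0e-25 from edgeR). FN1, fibronectin, went from 657, 806 and 793 CPM to 3597, 2931 and 3056 CPM, and PXDN, the peroxidase that cross-links collagen IV, from 220, 234 and 233 CPM to 938, 847 and 804 CPM. TIMP1, an inhibitor of matrix metalloproteinases, went from 608, 647 and 602 CPM to 1716, 1840 and 1903 CPM. CTSB, the lysosomal protease cathepsin B, went from 859, 880 and 865 CPM to 1842, 1905 and 1905 CPM, a log2 fold change of 1.10. In each of these 5 genes every library of day +2 was above every library of day −2, which the choice by gain makes likely. The gains of EEF1A1 (log2 fold change 0.14) and RPL3 (0.43), of the translation machinery, and of MT-RNR2 (0.55), MT-CO1 (0.32) and MT-CO3 (0.18) were small in fold. The libraries of MT-CO1 and MT-CO3 overlapped between the days, and neither was called by DESeq2 (adjusted p = 0.14 and 0.18). MT-CO3 was not called by edgeR either without replicate 1 of day −2 (adjusted p = 0.093) or replicate 1 of day +2 (0.062).

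The 10 largest losses in CPM were of abundant RNAs. ENO1, a glycolytic enzyme, went from 3778, 3774 and 3569 CPM to 1923, 2103 and 2130 CPM, a log2 fold change of −0.87 (standard error 0.05). PTRF, also named CAVIN1, which coats caveolae, went from 1485, 1489 and 1308 CPM to 578, 596 and 561 CPM, a log2 fold change of −1.32 (standard error 0.05). ANXA2 (−0.98), AHNAK (−0.97), PLEC (−0.82), FLNA (−0.69), HSP90AB1 (−0.61), GAPDH (−0.52) and ACTB (−0.37) fell on the log2 scale with no overlap of the days. The choice by loss makes that likely. ACTB and GAPDH are often used as reference genes. The last of the 10, RNA28S5, is ribosomal RNA that escaped the selection of poly(A) RNA. It was at 1780, 1899 and 3059 CPM at day −2 and at 1341, 1482 and 1278 CPM at day +2, and its log2 fold change of −0.73 was −0.44 without replicate 3 of day −2.

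Genes of growth were lower at day +2 across several lists. The lists were chosen for what their genes are known to do, but with earlier results of these data known. Each count is set beside the share of all tested genes that were lower (28.6%) or higher (28.1%). In ribosome biogenesis, which covers the synthesis and processing of ribosomal RNA in the nucleolus, 34 of 34 tested genes fell, with a median log2 fold change of −0.76. BOP1, which processes the precursor of the large subunit, went from 45.9, 45.3 and 45.6 CPM to 16.3, 18.1 and 17.8 CPM (log2 fold change −1.41, standard error 0.07). NOP16 (−1.17), BYSL (−1.12) and RRS1 (−1.08) followed, and the abundant nucleolar proteins NPM1 and NCL fell by 0.49 and 0.55 on the log2 scale. MYC, a transcription factor known to drive these genes, was at 132, 142 and 132 CPM at day −2 and at 41.6, 47.0 and 40.9 CPM at day +2, a log2 fold change of −1.66. The mRNAs of the ribosomal proteins themselves did not fall with them. Of 57, 24 rose and 6 fell, with a median of 0.09, and with scaling to the total count 43 rose and 2 fell. RPS27 (0.62) rose most and RPL8 (−0.37) fell most.

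Lipid synthesis was lower as well. Of 21 enzymes of cholesterol synthesis, 19 fell and 1 rose, with a median log2 fold change of −0.95. SQLE, which makes the epoxide of squalene, went from 222.8, 215 and 217 CPM to 84.3, 92.3 and 75.2 CPM (log2 fold change −1.40, standard error 0.06). HMGCS1, at the head of the pathway, went from 179, 162 and 162 CPM to 63.8, 66.6 and 65.0 CPM. CYP51A1 (−1.44) and MVK (−1.23) were the other large falls, and TM7SF2, a sterol reductase, was the one that rose (0.70). Of 13 genes of fatty acid synthesis 10 fell and 2 rose (median −0.72), with SCD and ME1 at −1.26, FADS3 and FASN at −1.14 and the elongase ELOVL6 at 0.69. Genes that handle sterol uptake and export were divided, 9 of 16 higher and 5 lower. The exporters ABCA1 and ABCG1 rose by 2.91 and 2.76, from 8.25 to 9.23 CPM to 57.9 to 62.4 CPM in the case of ABCG1, and NPC2 (1.37) and MYLIP (1.23) rose as well. The sterol sensor INSIG1 (−1.14) fell. Of the 21 promoters of cholesterol genes, 16 were in the RefSeq promoter table, and none held the letters TCACNCCAC, one form of the sterol regulatory element, against 0.867% of 12223 promoters of tested genes.

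The cell cycle was lowered in most of its genes but by small amounts. Of 46 genes of DNA replication 36 fell and none rose, with a median log2 fold change of −0.37. CDC25A, a phosphatase that starts S phase, went from 67.3, 63.7 and 64.5 CPM to 30.3, 34.0 and 33.7 CPM (log2 fold change −1.01, standard error 0.06), and UHRF1 (−0.77), CDC6 (−0.68) and TK1 (−0.64) followed. PCNA, the sliding clamp, and MCM3 of the replicative helicase were not called (−0.07 and −0.08). With scaling to the total count 31 fell and 1 rose. Of 51 genes of mitosis 37 fell and 5 rose, with a median of −0.26. CDC20, an activator of the anaphase-promoting complex, went from 416, 441 and 406 CPM to 239, 249 and 250 CPM (log2 fold change −0.79, standard error 0.05), FOXM1 (−0.78), CCNA2 (−0.74) and MYBL2 (−0.71) followed, and MKI67, the common marker of cycling cells, fell by 0.49. With scaling to the total count 26 fell and 8 rose. The risers were CENPE (0.32), HMMR (0.30), TOP2A (0.26), KIF18A (0.25) and CKAP2 (0.18), and TOP2A was at 750, 712 and 759 CPM at day −2 and at 928, 862 and 896 CPM at day +2. Of 10 G1 cyclins and kinases, 8 fell (5 with scaling to the total count), among them SKP2 (−0.73), CDK6 (−0.54), CKS2 (−0.31) and CDK4 (−0.25), and CCND2 rose (0.17).

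The cell cycle homology region, a short element at the start of many mitotic genes, is written TTTGAA. On either strand, these letters were found in the 250 bases before the start of 24 of the 44 mitotic genes with a promoter in the RefSeq table (54.5%), against 8.76% of the 12223 promoters of tested genes. Among the genes with a match, HMMR (0.30), TOP2A (0.26) and KIF18A (0.25) rose. DLGAP5, KIF4A and KIF11 were not called, and the other matched genes fell. Whether the element bears on the changes was not tested. The promoter of CDC20, the mitotic gene with the largest fall, held 2 matches and is shown for that reason (GRCh38.p14, chr1:43358731-43358980, plus strand, 5′ to 3′, with the matches in capitals).
CDC20: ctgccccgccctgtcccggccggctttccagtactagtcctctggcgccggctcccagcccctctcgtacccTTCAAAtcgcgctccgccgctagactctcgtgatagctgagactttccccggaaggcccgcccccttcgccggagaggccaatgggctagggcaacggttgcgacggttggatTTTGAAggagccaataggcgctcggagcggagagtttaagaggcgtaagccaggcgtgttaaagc

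Inhibitors of the cycle were mostly higher. Of 14 CDK inhibitors, pocket proteins and antiproliferative genes, 10 rose and 1 fell, with a median log2 fold change of 0.53. CDKN1B, which encodes p27, went from 73.3, 70.8 and 70.7 CPM to 109, 120 and 102 CPM (log2 fold change 0.60, standard error 0.06). BTG1 (1.57), CCNG2 (1.17) and CDKN2D (0.76) rose more, and CDKN1C, which encodes p57, rose by 0.84. The one that fell was CDKN1A, which encodes p21 and is induced by p53, from 194, 194 and 175 CPM to 119, 118 and 120 CPM. Among 21 targets of p53, 10 fell and 6 rose, with BAX at −0.89, PHLDA3 at −0.999 and GDF15 at 2.58. Of 21 FOXO factors and their targets, genes held down by insulin and growth factor signals, 12 rose and 5 fell, with a median of 0.59. TXNIP, which restrains glucose uptake, went from 2.53, 3.12 and 4.69 CPM to 41.4, 42.9 and 39.1 CPM (log2 fold change 3.60, standard error 0.13), KLF9 (1.83) and SESN3 (1.80) rose, and FBXO32, the ubiquitin ligase atrogin-1, went from 13.1, 12.6 and 13.5 CPM to 105, 110 and 98.2 CPM. CITED2 (−1.71) and TXNRD2 (−1.04) fell.

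Energy and folding genes were lower. Of 49 nuclear genes of the respiratory chain 35 fell and 1 rose (median −0.27), with ATP5G1 at −0.92, SDHB at −0.76, ATP5B at −0.69 and CYC1 at −0.61. Of 13 mRNAs of the mitochondrial genome, 4 rose, MT-ND6 (0.44) most, and MT-ND2 (−0.26) and MT-ND4L (−0.23) fell by edgeR, none rose by DESeq2, and 2 rose without replicate 1 of day −2 or replicate 1 of day +2. Neither fall was called by DESeq2, with scaling to the total count, or without replicate 2 of day −2 or replicate 2 of day +2, and that of MT-ND4L was also not called with the replicate block (adjusted p = 0.069), in the fit of all 27 libraries or without replicate 3 of day +2. Without replicate 2 of day −2 the log2 fold change of MT-ND4L was −0.07. Mitochondrial genes took 4.16% to 5.30% of the counts at day −2 and 5.49% to 6.37% at day +2. Of 22 genes of glycolysis 13 fell and 6 rose. LDHA, which makes lactate, went from 1471, 1403 and 1311 CPM to 690, 745 and 781 CPM (log2 fold change −0.93, standard error 0.05), while the transporter SLC2A3 (1.19), ALDOC (1.09) and the regulator PFKFB4 (0.87) rose. Of 19 cytosolic heat shock proteins 15 fell and none rose (median −0.56), with HSPB8 at −1.83, CHORDC1 at −1.23, FKBP4 at −0.99 and HSPD1 at −0.84. Of 20 chaperones of the endoplasmic reticulum 8 fell and 3 rose, with SDF2L1 at −0.80, HSPA5 at −0.54, CANX at −0.53 and EDEM1, which directs misfolded proteins to degradation, at 1.01. With scaling to the total count this list turned, with 5 lower and 7 higher. Of 22 targets of NRF2, the factor of the oxidative stress response, 13 fell and 2 rose, with TXNRD1 at −1.55, SRXN1 at −1.47, ME1 at −1.26 and the exporter ABCC3 at 1.52. MT1E (−1.86) was the one of 3 tested metallothioneins that changed.

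Targets of YAP and TEAD, and the contractile genes of SRF, were lower. Of 26 YAP and TEAD genes 20 fell and 4 rose, with a median log2 fold change of −0.63, and the falls were 15 without replicate 3 of day +2 or with scaling to the total count. CYR61, a matricellular protein, went from 315, 343 and 288 CPM to 125, 114 and 105 CPM (log2 fold change −1.48, standard error 0.06). FJX1 (−1.90), TGFB2 (−1.72) and WWC1 (−1.66) fell more, and the receptor AXL fell by 1.38. The much used targets CTGF (−0.15) and ANKRD1 (−0.12) fell by small amounts. YAP1 mRNA was not called (0.04), whereas WWTR1, which encodes the related TAZ, was the largest rise, from 33.4, 32.2 and 32.6 CPM to 117, 115 and 112 CPM. Of 23 genes of SRF and the contractile cytoskeleton 17 fell and 3 rose. TAGLN, transgelin, went from 64.9, 67.4 and 50.0 CPM to 7.26, 8.67 and 7.83 CPM (log2 fold change −2.95, standard error 0.10), CNN1, calponin, fell by 3.04, LIMA1 by 1.31 and TPM1, tropomyosin, by 1.14.

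The core of the TEAD binding site is written GGAATG. It was found on either strand in 7 of 20 promoters of the YAP and TEAD list (35.0%), against 9.63% of all promoters of tested genes. The log2 fold changes of the matched genes were −1.72 for TGFB2, −0.58 for NUAK2, −0.21 for PTPN14 and −0.15 for CTGF. Those of ANKRD1, YAP1 (not called) and FOXF2 were −0.12, 0.04 and 0.46. Whether the site bears on the changes was not tested. The promoter of TGFB2, the gene of the list with the largest fall among those with a match, is shown (GRCh38.p14, chr1:218345086-218345335, plus strand, with the match in capitals).
TGFB2: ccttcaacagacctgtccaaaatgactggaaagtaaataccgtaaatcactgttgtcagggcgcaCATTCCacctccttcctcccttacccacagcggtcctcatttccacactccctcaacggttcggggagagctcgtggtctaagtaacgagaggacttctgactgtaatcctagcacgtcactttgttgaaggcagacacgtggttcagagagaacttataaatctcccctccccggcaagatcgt

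The circadian clock is a feedback loop in which CLOCK and ARNTL drive the PER, CRY and NR1D genes, whose products shut them off. Of 20 clock genes and outputs 16 rose and 3 fell, with a median log2 fold change of 1.23. BHLHE41, a repressor of CLOCK and ARNTL, went from 28.7, 30.2 and 26.9 CPM to 198, 200.2 and 213 CPM (log2 fold change 2.82, standard error 0.06, adjusted p = 1.6e-23 from edgeR). NPAS2, which can stand in for CLOCK, went from 20.2, 21.98 and 22.7 CPM to 90.2, 88.6 and 95.4 CPM. DBP (1.85) and NR1D1 (1.82), outputs of the loop, PER2 (1.46), PER3 (1.25) and PER1 (1.20) rose. The fallers were CRY1 (−0.75), ARNTL2 (−0.55) and CLOCK (−0.49), and ARNTL was not called (0.09). The hour of collection is not given in the sources used here, and 1 time a day cannot tell a phase from a level. The E-box CACGTG, which CLOCK and ARNTL bind, was found in 5 of 19 clock promoters (26.3%) and in 8.56% of all. The promoter of BHLHE41 is shown as that of the largest rise with a match (GRCh38.p14, chr12:26125038-26125287, minus strand, written 5′ to 3′ on that strand, with the match in capitals).
BHLHE41: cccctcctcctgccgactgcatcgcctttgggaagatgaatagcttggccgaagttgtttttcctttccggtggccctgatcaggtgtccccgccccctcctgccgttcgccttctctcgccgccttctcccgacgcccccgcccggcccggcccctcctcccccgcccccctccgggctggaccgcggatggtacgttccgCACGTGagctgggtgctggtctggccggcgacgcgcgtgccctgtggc

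Genes that interferon induces were higher. Of 36 tested genes 27 rose and 1 fell, with a median log2 fold change of 0.86. IFIT1, which binds foreign RNA, went from 7.83, 9.24 and 7.19 CPM to 26.6, 24.8 and 25.9 CPM (log2 fold change 1.65, standard error 0.10), IFIT2 from 1.40, 1.49 and 2.24 CPM to 8.99, 10.3 and 9.24 CPM, and ISG20, an RNA exonuclease, from 3.27, 4.54 and 3.16 CPM to 12.5, 15.1 and 11.5 CPM. OASL (2.18) and GBP2 (1.97) were further large rises. STAT2 (1.12) and IRF9 (1.63), parts of the factor that drives these genes, rose. OAS3 fell (−0.37), and MX1 and IRF7 were not called (0.16 and −0.17). Of 21 genes of antigen presentation 11 rose and 1 fell, with the proteasome subunit PSMB9 at 1.02, HLA-F at 0.98 and TAP2 at −0.70. Of 20 complement genes 12 rose and 3 fell. CFI, a protease that inactivates complement, went from 1.42, 1.49 and 1.87 CPM to 31.2, 32.1 and 32.8 CPM (log2 fold change 4.34, standard error 0.12). C4A and C4B, near-identical copies whose reads are hard to divide, rose by 2.86 and 3.31. Of 17 chemokines and cytokines 6 rose and 3 fell, with CX3CL1 at 2.63, CXCL14 at 2.04, CCL2 at 1.86 and LIF at −0.79.

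The interferon-stimulated response element was searched as GAAANNGAA on either strand. It was found in 17 of 28 interferon promoters (60.7%), against 5.43% of all promoters of tested genes. Of these 17 genes 14 rose and 1 fell. The promoters of ISG20 and IFIT1, the largest rises with a match, are shown (GRCh38.p14, plus strand, ISG20 at chr15:88638766-88639015 and IFIT1 at chr10:89392373-89392622, with the matches in capitals). ISG20 held 1 match, which begins 69 bases before the start, and IFIT1 held 2, the first of which begins 115 bases before it.
ISG20: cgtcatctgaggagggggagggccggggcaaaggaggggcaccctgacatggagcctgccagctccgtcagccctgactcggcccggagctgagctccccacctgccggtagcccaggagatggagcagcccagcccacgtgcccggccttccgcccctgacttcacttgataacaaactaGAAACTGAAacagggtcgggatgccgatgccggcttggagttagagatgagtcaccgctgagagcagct
IFIT1: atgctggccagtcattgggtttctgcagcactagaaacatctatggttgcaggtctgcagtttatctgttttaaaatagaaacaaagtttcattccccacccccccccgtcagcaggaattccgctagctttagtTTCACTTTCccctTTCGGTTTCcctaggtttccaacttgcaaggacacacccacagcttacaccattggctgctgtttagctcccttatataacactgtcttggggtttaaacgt

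Lysosomal genes were higher. Of 55, 35 rose and 4 fell, with a median log2 fold change of 0.44. CD63, a membrane protein of late endosomes, went from 350, 370 and 325 CPM to 824, 872 and 823 CPM. The glycosidases IDUA (1.95) and FUCA1 (1.90), the protease CTSO (1.91) and the phosphatase ACP5 (1.86) rose most, and TFEB, a factor that drives lysosomal genes, rose by 1.48. The cathepsins differed in sign, with CTSB at 1.10, CTSD at 0.48, CTSC at −0.43 and CTSL at −0.97. The lysosomal element TCACGTGA, which contains the E-box CACGTG, was found in 6 of 35 promoters of the list (17.1%) and in 1.53% of all, and 3 of the 6 genes rose. Of 29 autophagy genes 13 rose and 6 fell, with WIPI1 at 1.18, ATG16L2 at 1.15, TP53INP1 at 0.87 and the ATG8 family member GABARAPL1 at 0.79.

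Matrix lists held rises and falls. Of 38 glycoproteins and proteoglycans of the matrix 24 rose and 10 fell. LTBP3, which holds latent TGF-beta, went from 70.9, 79.4 and 84.1 CPM to 294, 302 and 341 CPM (log2 fold change 1.99), while MFAP5 (−2.98), MATN2 (−2.21) and THBS1 (−1.20) fell. Of 24 network, basement membrane and other collagens 15 rose and 5 fell, with COL14A1 at 3.66, COL4A6 at 1.88, COL6A3 at 1.42, COL4A4 at −2.47 and COL17A1 at −2.42. Of 10 fibrillar collagens 4 rose and 3 fell, with COL11A2 at 1.94, COL11A1 at 1.49, COL3A1 at 0.98 and COL5A3 at −3.71, and COL1A1 fell by 0.15 with libraries that overlapped between the days. The enzymes that modify and cross-link collagen were divided, with 10 of 24 higher and 8 lower. LOXL3 (1.40) and PCOLCE (0.99) rose, and PCOLCE2 (−1.92) and LOXL2 (−0.83) fell. Of 17 matrix metalloproteinases and inhibitors 7 rose and 6 fell. MMP2, a gelatinase, went from 222, 225.9 and 244 CPM to 504, 483 and 494 CPM, a log2 fold change of 1.08 (standard error 0.05). MMP13, a collagenase, went from 0.675, 0.426 and 0.748 CPM to 5.21, 5.63 and 6.78 CPM, MMP17 rose by 2.02, and MMP24 fell by 2.48 from 67.5, 65.6 and 63.0 CPM.

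Of 34 cadherins and protocadherins 23 rose and 7 fell. The rises were mostly of protocadherins, such as PCDH1 (2.21), PCDHB10 (1.94), PCDHB11 (1.89) and PCDHB15 (1.86). Of the beta cluster, PCDHB11 went from 8.12, 8.01 and 9.92 CPM to 31.8, 35.0 and 30.4 CPM. These genes are close paralogs, so that reads shared between them may have been lost or divided. Among classical cadherins, the mesenchymal CDH11 rose (0.99) while CDH2 (−0.79), CDH13 (−1.70) and the epithelial CDH1 (−3.83, from 1.54, 0.922 and 2.50 CPM to 0.288, 0 and 0.0729 CPM) fell.

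Early response genes of growth factor signalling were mostly higher, and in opposite directions among the best known. Of 30 such genes 21 rose and 7 fell, with a median log2 fold change of 0.57. PHLDA1 went from 20.6, 22.2 and 24.6 CPM to 354, 360.1 and 368 CPM (log2 fold change 3.997, standard error 0.06, adjusted p = 7.8e-26 from edgeR). The feedback inhibitors of ERK signalling SPRY4 (2.93) and SPRY2 (1.83) rose, and FOS went from 6.43, 6.55 and 5.38 CPM to 25.4, 27.4 and 26.3 CPM. MYC, JUN (−0.94), FOSL2 (−1.48), ATF3 (−1.55) and DUSP1 (−1.62) fell. Targets of the hypoxia factor HIF outside glycolysis were divided, 13 of 22 higher and 8 lower. DDIT4, an inhibitor of mTORC1, went from 10.9, 10.1 and 11.9 CPM to 67.1, 82.4 and 81.2 CPM, VEGFA (1.24) and ADM (1.18) rose, and CA12 fell by 1.36.

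Other signalling and lineage lists were divided about evenly. WNT targets and antagonists had 8 of 19 higher and 8 lower, with RNF43, a feedback ligase for WNT receptors, at 3.26, NKD1 at 2.01, LGR5 at −2.05 and WNT7B at −2.27. Notch genes had 7 of 17 higher and 7 lower, with the ligand DLL1 at 2.18, HES1 at 1.54, NOTCH4 at 1.11 and DTX3 at 0.99. Targets of BMP and TGF-beta had 11 of 21 higher and 7 lower, with TSC22D1 at 1.63, INHBA at −1.11 and TGFBI at −1.96. Osteoblast genes had 8 of 18 higher and 7 lower. TNFRSF11B, the osteoclast inhibitor osteoprotegerin, went from 13.1, 14.4 and 15.5 CPM to 106, 108 and 98.6 CPM, PHEX rose by 2.27, SPP1 rose by 1.03, and ALPL, the alkaline phosphatase of bone, fell by 1.18. Of 60 histone genes of S phase, whose mRNAs mostly lack a poly(A) tail, 33 were tested, and 14 rose and 1 fell, with HIST2H2BE at 1.46 and HIST1H2AG at 1.10. HIST1H2BF (1.22) was not called without replicate 1 of day −2 or replicates 1 or 3 of day +2, nor HIST1H4J (0.98) without replicate 3 of either day.

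**Figure D3:**
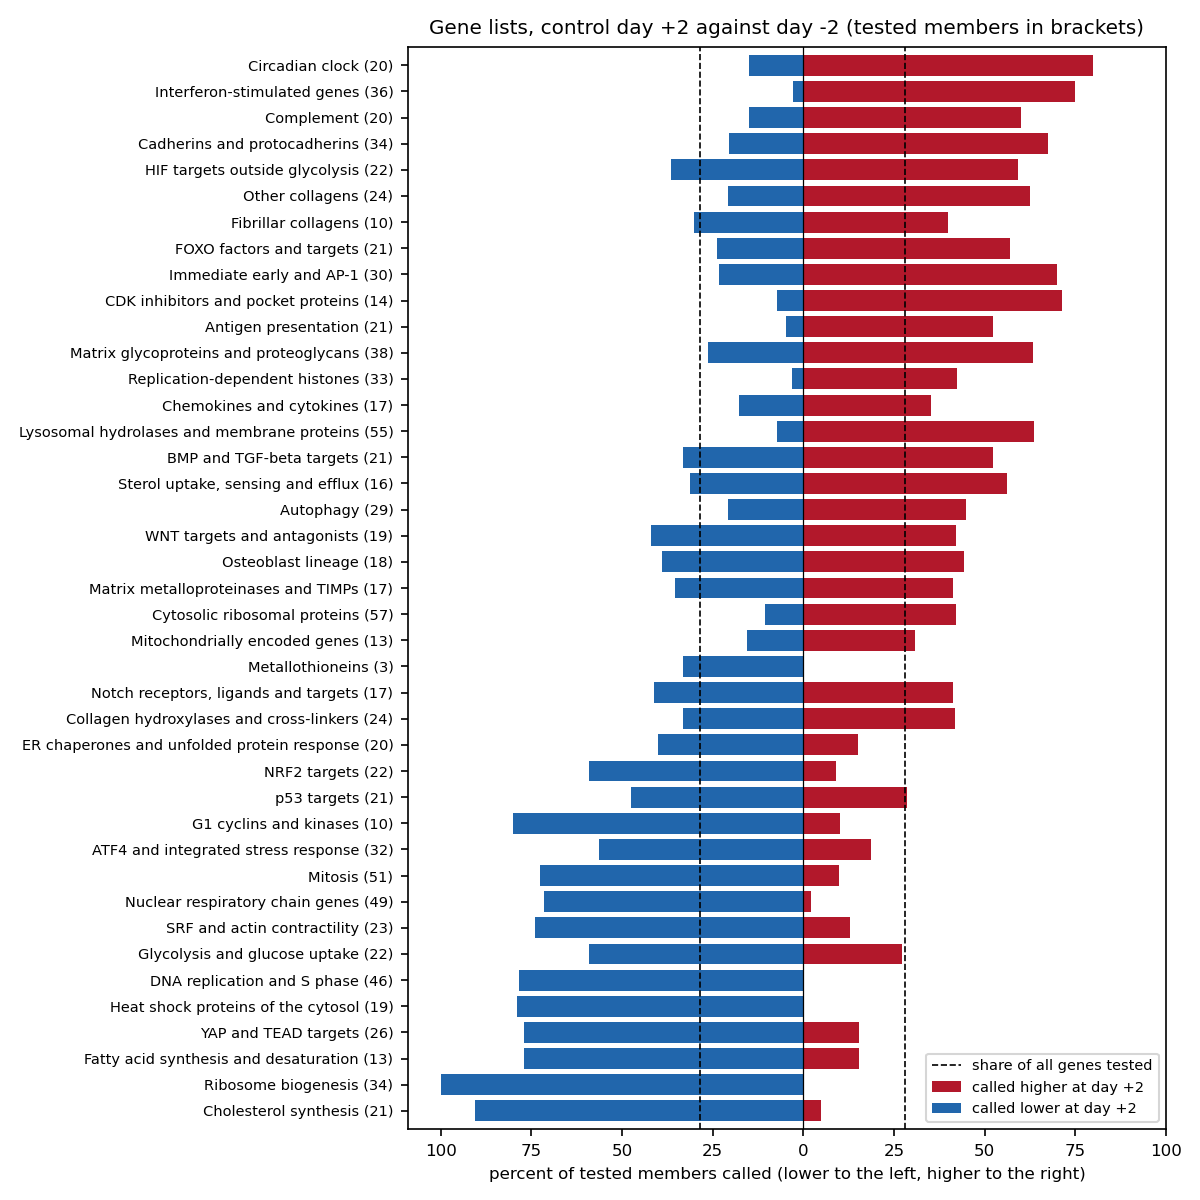
Bars give the percent of tested members of each of 41 gene lists that were called lower (blue, to the left) or higher (red, to the right) in the control at day +2 against day −2, with the number of tested members in brackets. Dashed lines mark the shares of all 19099 genes (28.6% lower, 28.1% higher), and ribosome biogenesis, with 34 of 34 lower, stands at the far left.

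The libraries of day 0 give the level at confluence, on the way between both states. For the 20 rises, the median log2 change of the mean level from day −2 was 2.50 at day 0 and 5.51 at day +2, and for the 20 falls it was −1.30 and −4.98 (levels with a prior count of 2 reads, so that the changes are smaller than the fitted ones). On this scale the median change after confluence was larger than that before it in both sets. The prior count shrinks changes from levels near 0 most, so for the rises this order is uncertain. The lists differed in their course, given here as medians over tested members and without a test. Ribosome biogenesis stood at −0.30 at day 0 and −0.75 at day +2, cholesterol synthesis at −0.39 and −0.94, and the contractile genes at −0.26 and −0.30. DNA replication (−0.02 and −0.35), fatty acid synthesis (−0.01 and −0.71) and the lysosome (−0.01 and 0.47) stood near their level of day −2 at confluence. Several lists stood on opposite sides of it at day 0 and day +2, some of them close to it at day 0. Examples are antigen presentation (−0.07 and 0.54), mitosis (0.06 and −0.24), early response genes (−0.19 and 0.58), HIF targets (−0.12 and 0.73), and chemokines and cytokines (−0.38 and 0.50). TOP2A, at 1023 CPM, was higher at day 0 than at either other day.

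**Figure D4:**
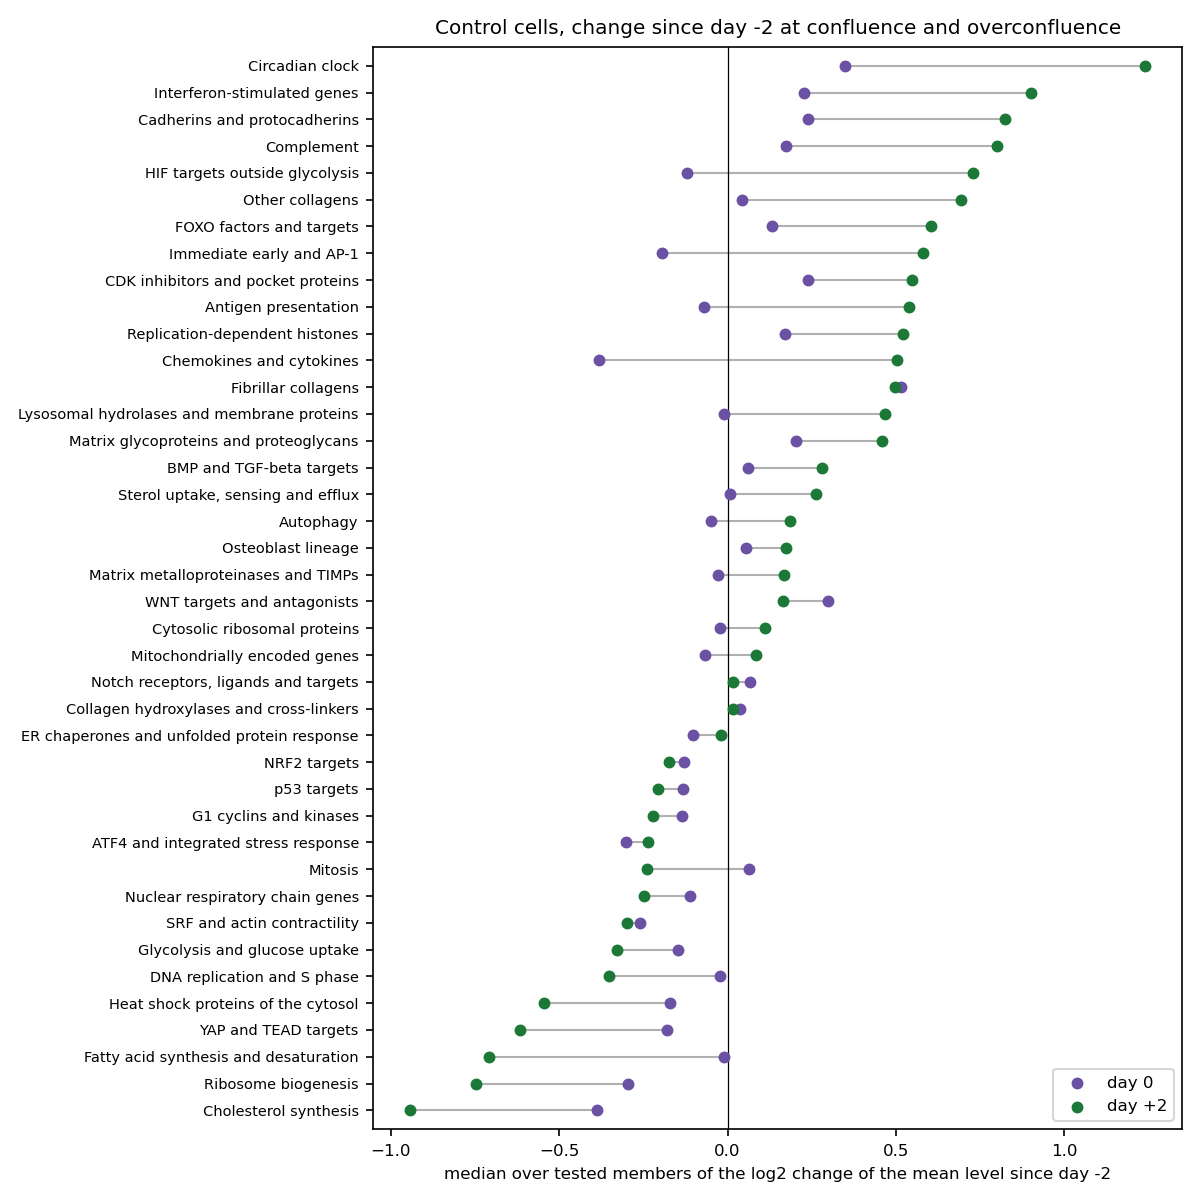
For each gene list with 10 or more tested members, points give the median log2 change of the mean control level since day −2, at day 0 (purple) and at day +2 (green), joined by a grey line. Several lists, such as mitosis, antigen presentation, early response genes, HIF targets and cytokines, have their points on opposite sides of 0.

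The libraries of MMP2sh1 and MMP2sh2 had no part in choosing the 40 genes and share no library with the control in the comparison of day +2 with day −2. MMP2, the gene targeted in these lines, was at 33.9 to 46.7 CPM at day −2 in MMP2sh1 and at 135 to 158 CPM in MMP2sh2, and at 94.1 to 101.0 and 269 to 291 CPM at day +2, below every control library of the same day. In MMP2sh1, 27.3% of 19080 tested genes rose and 27.7% fell, and in MMP2sh2 27.7% of 19175 rose and 27.1% fell. Of the 20 rises, 19 were tested in each line, and 19 rose in MMP2sh1 and 19 in MMP2sh2, with median log2 fold changes of 5.90 and 6.39. Of the 20 falls, 20 fell in MMP2sh1 and 20 in MMP2sh2, with medians of −5.19 and −4.85. PCK1 was the rise that the filter removed in both lines. At day +2 it was at 0.0782, 0.539 and 0.0483 CPM in MMP2sh1 and at 0.436, 0.306 and 0.167 CPM in MMP2sh2, all below the 3.28 to 7.998 CPM of the control. The change of PCK1 differed between the control and MMP2sh1 (edgeR's test of the interaction of line and day, adjusted p = 0.024), and no usable error was had for MMP2sh2, whose libraries of day −2 had no read. The interaction was called for 7.40% of 20548 genes with MMP2sh1 and for 4.98% of 20653 with MMP2sh2. Both tests use the same control libraries, and without replicate 2 or 3 of the control at day +2 the count for MMP2sh1 was 1004 or 934 in place of 1520. Without replicate 3 the count for MMP2sh2 was 541 in place of 1029.

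Genes of the integrated stress response, which ATF4 drives when amino acids are short, took another course in the control than in the shRNA lines. In the control 18 of 32 fell and 6 rose, in MMP2sh1 13 rose and 5 fell, and in MMP2sh2 13 rose and 11 fell. The median log2 fold changes were −0.25, 0.04 and 0.06. The interaction was called in 22 of the 32 with MMP2sh1, against 7.40% of all genes, and in 15 with MMP2sh2, against 4.98%. These counts were 18 to 25 and 10 to 17 when any 1 of the 12 libraries was dropped, and the list was singled out after its counts were seen. Values of single genes are given next for MMP2sh1 and not for MMP2sh2. SLC7A11, the cystine transporter, changed by −0.20 in the control and by 1.46 in MMP2sh1, ALDH1L2, of mitochondrial folate metabolism, by 0.01 and 1.83, and the serine enzyme PSAT1 by −0.30 and 0.62, each as a log2 fold change. ASNS, asparagine synthetase, went from 102, 100.7 and 93.4 CPM to 147, 142 and 124 CPM in the control (log2 fold change 0.46) and rose by 1.46 in MMP2sh1. DDIT4 and GDF15 differed the other way, with 2.80 and 2.58 in the control against 1.86 and 1.77 in MMP2sh1. SLC7A5, a transporter of large amino acids, fell by 1.02 in the control, from 628, 675 and 585 CPM to 338, 311 and 292 CPM. Genes of glycolysis, 12 of 22 with MMP2sh1 and 9 of 22 with MMP2sh2, had interactions called in 1 direction, with a lower change in the shRNA lines. Dropping control replicate 1 of day +2 made the count with MMP2sh2 14, and dropping replicate 3 made it 6. Other lists also held many such calls. Targets of BMP and TGF-beta had 11 of 21 with MMP2sh1 and 8 of 21 with MMP2sh2, in both directions. HIF targets outside glycolysis had 10 of 22 and 7 of 22, and the histone genes of S phase had 10 and 7. For ribosomal proteins, 24 of 57 rose in the control, whereas 24 fell in MMP2sh1 and 21 in MMP2sh2, and the interaction, called in 18 and 10, was called in 6 and 1 without replicate 2 of the control at day +2.

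The element that ATF4 binds was searched as TGATGNAA and was found in 5 of 26 promoters of the list (19.2%), against 1.53% of all. Of the genes with a match, ASNS rose in the control (0.46) and ATF3 fell (−1.55). AARS (0.03), CHAC1 (−0.09) and FGF21 (−0.20) were not called. The promoter of ASNS is shown (GRCh38.p14, chr7:97872409-97872658, minus strand, written 5′ to 3′ on that strand), with its 1 match, 68 bases before the start, in capitals.
ASNS: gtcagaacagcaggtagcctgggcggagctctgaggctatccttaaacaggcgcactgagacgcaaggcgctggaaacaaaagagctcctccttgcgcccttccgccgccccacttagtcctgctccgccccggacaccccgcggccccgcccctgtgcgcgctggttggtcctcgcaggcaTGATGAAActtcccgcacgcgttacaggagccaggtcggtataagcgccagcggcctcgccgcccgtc

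**Figure D5:**
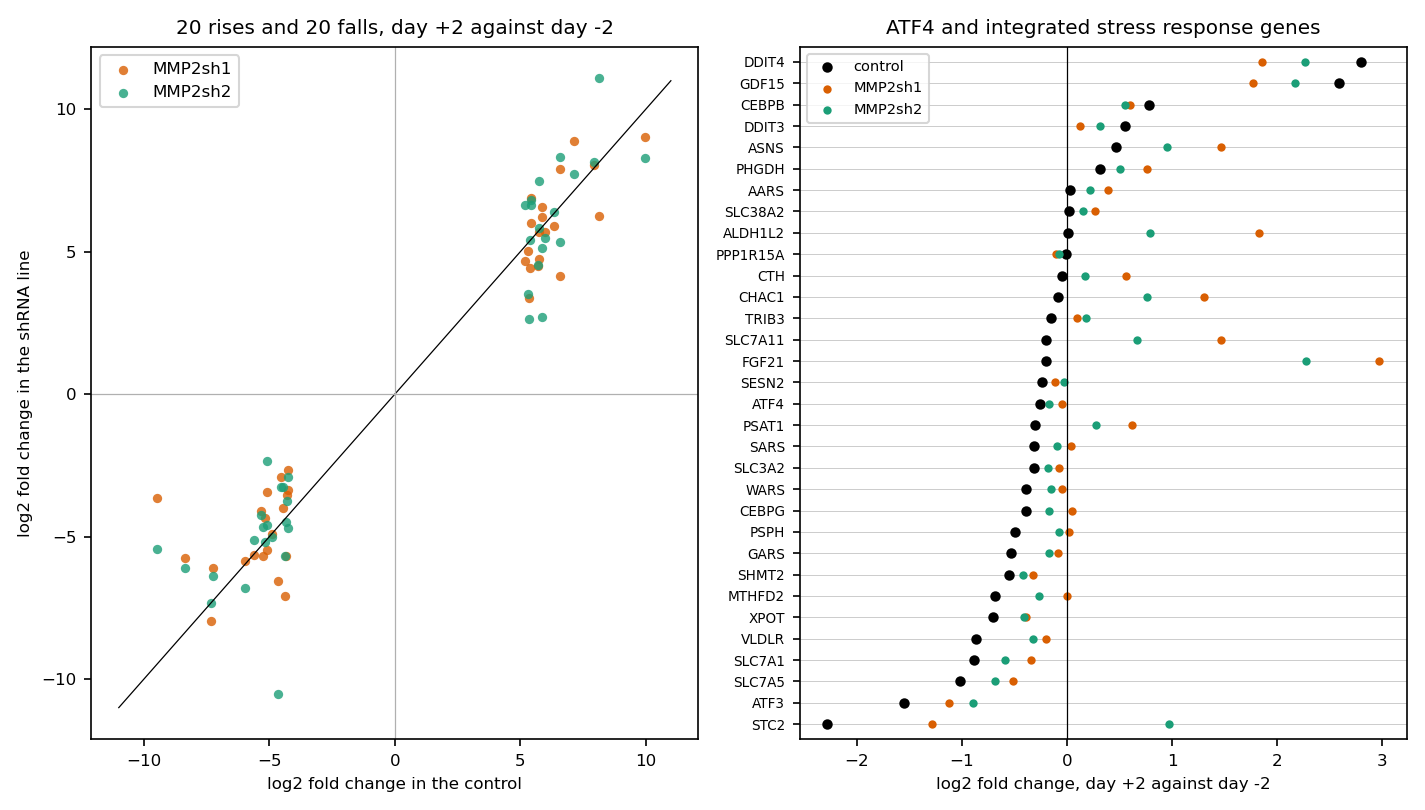
Left, log2 fold changes from day −2 to day +2 of the 40 largest rises and falls of the control (x axis) against those in MMP2sh1 and MMP2sh2 (y axis), with the line of equality. All points drawn lie in the quadrants of equal sign, and PCK1, not tested in the shRNA lines, is left out. Right, log2 fold changes of the 32 genes of the integrated stress response in the 3 lines, in the order of the control, where most control points lie left of those of both shRNA lines.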

How the data were processed

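RNA was extracted with TRIzol and libraries were made from poly(A) RNA with the NEBNext Ultra II kit, which does not mark the strand, and sequenced in pairs. After trimming by Trim Galore 0.6.0, the authors used STAR 2.7.3a for alignment to the hg19 build, removed low-quality alignments with Samtools and counted exon reads per gene without strand with HTSeq 2.0.0 (union mode, minimum quality 10), so reads of overlapping and antisense genes cannot be told apart. The deposited files hold these raw counts, 1 file per library, for 55882 symbols and 5 summary lines, which took 17.1% to 18.1% of the 6 libraries compared and were left out.

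Groups were taken from the sample labels. Counts of the 3 control libraries of day +2 and the 3 of day −2 were filtered with filterByExpr (minimum count 10, minimum total 15), scaled by TMM and tested with edgeR 4.0.16 in R 4.3.3 by the quasi-likelihood test, with Benjamini-Hochberg adjustment over all 19099 genes. The standard error is the log2 fold change divided by the square root of F. CPM used TMM factors over all 27 libraries. Difference between lines was the interaction of line and day in 12 libraries. DESeq2 1.42.0, other scalings and filters, thinning, other sets of libraries, a replicate block and leaving out each library were alternatives. The tests were also run on simulated data in which far fewer genes changed than were called here. That run does not check the scaling where most genes change. Totals on genes of 33778818 to 59374327 set the precision, and counting intervals and floors cover counting error only. Promoters (250 bases before the start) came from the RefSeq table of GRCh38.p14, matched by symbol.

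The members and lists were chosen with earlier results of these data known. Genes named were MMP2 and CTSB, the 20 largest rises and 20 largest falls at a mean of 1 CPM or more, the 10 largest gains and losses in CPM, and in each list the 4 called genes with the largest change at 1 CPM or more and members opposite to most of the list. Other members were named after their values were seen. Some genes that the rule names are not reported here. Same-numbered libraries did not deviate together, so the numbers were not used as pairs.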

Additional observations from a re-analysis of the deposited data

Results flagged for a closer look

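The change from day −2 to day +2 differed between the control and MMP2sh1 in 15 genes, by edgeR's test of the interaction. They are among the 20 largest rises, 20 largest falls, 10 largest gains and 10 largest losses of the control. Over all genes tested, the interaction of line and day was called for 7.40% with MMP2sh1 and for 4.98% with MMP2sh2. The control libraries that chose these genes also enter the test, which favours a difference. The difference is given as the log2 fold change of MMP2sh1 minus that of the control. Among the largest rises it was −8.32 for PCK1 and 1.47 for SLITRK6. Among the largest falls it was 5.81 for ANXA8L2, 0.84 for GSG1, 1.64 for PSG9, −2.72 for ANKRD2, −1.33 for TNNT2, 0.79 for LINC00842 and 1.63 for RP11-890B15.2. Among the largest gains and losses in CPM it was 0.30 for MT-RNR2, 0.58 for FN1, 0.67 for PXDN, −0.25 for RPL3, 0.57 for IGFBP5 and 0.58 for PLEC. MMP2sh2 differed from the control in other genes of these sets, with −3.14 for PRF1, −5.87 for C6orf99, −0.29 for TIMP1 and −0.39 for CTSB, and in SLITRK6, with 1.21. Only SLITRK6 was called with both lines, in tests that share the control libraries. For PCK1, ANXA8L2, PRF1 and C6orf99, with libraries at or near 0, the fitted size depends on the prior count.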

How the results depend on the processing

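The number of genes called, 10839, was 10020 to 11007 over the alternatives, with 10020 to 10605 when 1 library was left out, and each call shared with the reported fit kept its sign. The replicate block gave 10646 calls, and same-numbered libraries correlated by 0.0175, 0.00912 and −0.0316, so that they share only a number. DESeq2 called 10501 genes. With scaling to the total count, 43 ribosomal proteins were higher in place of 24, 5 chaperones of the endoplasmic reticulum lower in place of 8, 5 G1 genes lower in place of 8, 3 epithelial markers lower in place of 5 and 2 mesenchymal markers lower in place of 4. With 10 counts in every library, 3 epithelial markers were lower. Of the 13 mitochondrial mRNAs, 4 were called higher in the reported fit, 0 by DESeq2 and 2 in the fit of 27 libraries. Leaving out 1 library gave 2 to 6. The interaction was called in 934 to 1682 genes with MMP2sh1 and 541 to 1214 with MMP2sh2 when 1 library was left out. The cause of these shifts was not tested. For the 213 genes that the naming rule picks by rank, with MMP2 and CTSB, 22 of 3160 values under the alternatives lost the call and 0 reversed. Other genes named in the text were not followed there. Depth limits statements on genes under 1 CPM.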
